A study of Mus musculus with 12 samples.

Results

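Imprinted genes are described here, 10 of the 3939 genes listed in the authors' deposited table for left ventricular myocardium of AngII/PE-treated against control mice. They were picked by symbol from that table: Meg3, Rtl1, Rian, B830012L14Rik and Mirg of the Meg3 locus on chromosome 12, and H19, Cdkn1c, Grb10, Plagl1 and Mest from other loci. The animals were wild-type mice of a C57Bl6J/129X1 hybrid background. Control females and control males had received NaCl, and treated females and treated males an AngII/PE infusion, each for 3 days and with 3 libraries in each of the 4 groups. The labels give no age, dose or route, or whether libraries of a group are from different mice. AngII/PE usually stands in cardiac research for angiotensin II, a vasoconstrictor peptide, combined with phenylephrine, which activates alpha-1 adrenergic receptors.

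Imprinted genes are transcribed mainly from the chromosome inherited from a single parent, because DNA methylation laid down in the egg or the sperm marks a control region near them. Many are highly expressed in the fetus, are turned down in most organs after birth, and act on growth. As a rule of thumb, with many exceptions, paternally expressed genes promote growth and maternally expressed genes restrain it. In the mouse, Meg3, Rian, B830012L14Rik, Mirg, H19, Cdkn1c and, outside the brain, Grb10 are known as maternally expressed, whereas Rtl1, Plagl1 and Mest are known as paternally expressed. This classification is background knowledge. The deposited values do not separate the parental alleles, so they do not say which allele's transcripts changed.

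Levels in single libraries were not analysed here. The data for a gene are its average log2 fold change and its adjusted p as the authors gave them, with no standard error. The spread between mice, the values in females and males on their own and the sequencing depth are therefore unknown, and the tissue label could not be checked against levels of marker genes. A few genes pair a change near 0 with a small adjusted p. Eif2s3y, for example, was at -0.011 (adjusted p of 9.56e-08) in the authors' deposited table. Whether an adjusted p belongs to the fold change beside it is therefore not certain.

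After AngII/PE, 9 of the 10 genes rose and Cdkn1c alone among them fell. Of all listed genes, 56.2% were higher and 43.8% lower. The changes came from whole myocardium, in which fewer or more cells of a type and less or more RNA per cell cannot be told apart. Since the genes were chosen from this same comparison, their directions are a description and were not tested. The largest rise was that of H19 and the smallest that of Plagl1, and 7 of the 10 had a log2 fold change of at least 1, a size reached by 30.7% of listed genes. Cdkn1c was the 1 gene at -1 or below, where 6.96% of listed genes lay. All 10 had adjusted p-values of at most 0.001 in the authors' deposited table, as did 88% of all listed genes (94.9% were at 0.01 or below), so this does not set them apart. At limits of 0.01 and 0.001, 9 of the 10 were still higher, against 56.6% and 57% of all genes left. Of the 10, 6 lay above the table's median adjusted p of 1.51e-13.

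**Figure D1:**
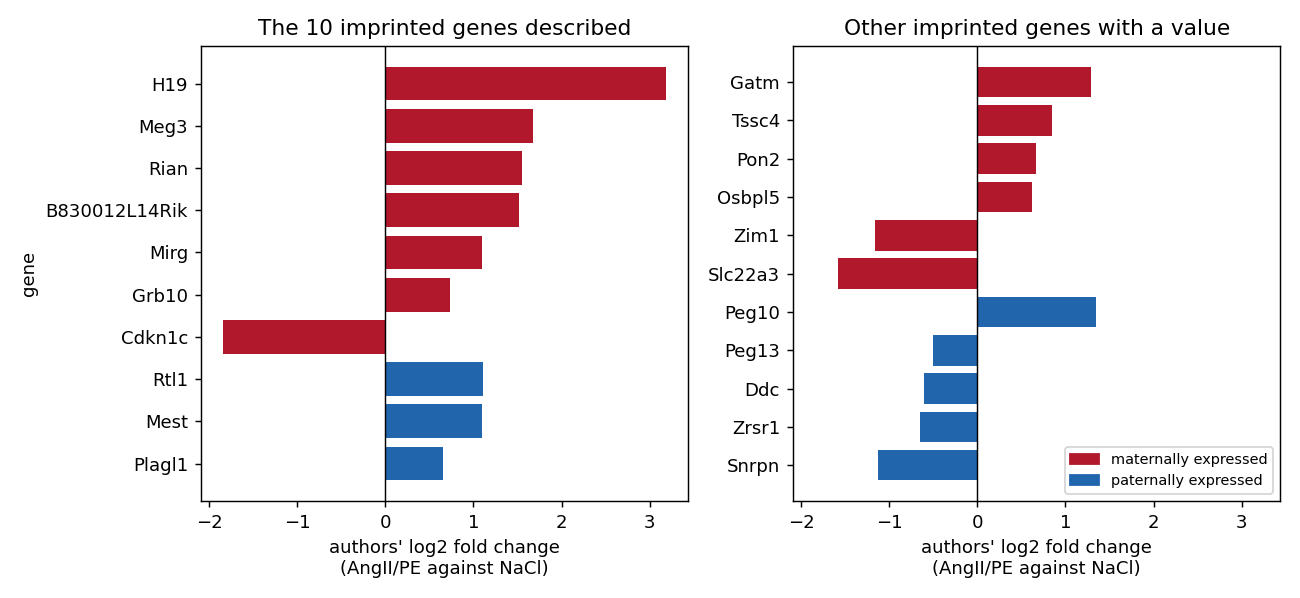
Bars give the authors' log2 fold change of AngII/PE against NaCl for the 10 imprinted genes (left) and for the 11 other imprinted genes with a value (right), in red for maternally and blue for paternally expressed genes; no error is available. On the left Cdkn1c alone points down, while on the right 5 bars point up and 6 down.

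The Meg3 locus is one of the largest clusters of imprinted noncoding RNA in mammals. From the maternal chromosome, transcription in one direction yields the long RNAs Meg3, Rian and Mirg together with many small nucleolar RNAs (snoRNAs, which guide chemical modification of other RNAs) and microRNAs (miRNAs, which repress mRNAs that pair with their seed, bases 2 to 8). From the paternal chromosome come the protein-coding genes Dlk1, Rtl1 and Dio3. The 5 listed genes of the locus span 208 kb, from 109541001 to 109749460 on chromosome 12 in GRCm38, the assembly also called mm10, and GENCODE M21 places 66 miRNA genes and 23 snoRNA genes between those ends. None of these small RNA genes had a value in the authors' deposited table, so the miRNAs below were not measured here.

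The miRNAs encoded opposite Rtl1 are shown because they join the maternal and paternal sides of the locus. All 11 mature miRNAs on the strand opposite Rtl1 lie within its coding exon, and the exact reverse complement of each was found in the annotated Rtl1 transcript. A maternal antisense transcript is known to carry them. Those of 5 hairpins follow, 1 arm each, from RefSeq on GRCm38.p6 and written 5′ to 3′ with the seed in capitals.
mmu-miR-431-5p: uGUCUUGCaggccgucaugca
mmu-miR-433-3p: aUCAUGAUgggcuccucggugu
mmu-miR-127-3p: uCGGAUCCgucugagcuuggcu
mmu-miR-434-3p: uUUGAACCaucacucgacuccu
mmu-miR-136-5p: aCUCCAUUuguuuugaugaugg
No 2 of these share a seed. Of the 112 mature miRNAs between the ends of the locus, counted by position, 20 share their seed with another of them. There are 102 distinct seeds in all. The 20 include mmu-miR-3070-5p at 2 positions with the same sequence, a pair of the same miRNA.

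The miRNAs inside the other genes are shown because they are known to be cut from the same transcripts whose change is reported. Meg3, H19 and Mest carry these, again with the seed in capitals.
mmu-miR-770-5p: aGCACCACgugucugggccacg
mmu-miR-770-3p: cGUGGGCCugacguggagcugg
mmu-miR-675-5p: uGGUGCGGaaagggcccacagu
mmu-miR-675-3p: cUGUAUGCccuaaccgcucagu
mmu-miR-335-5p: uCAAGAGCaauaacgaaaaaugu
mmu-miR-335-3p: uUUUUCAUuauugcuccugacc
The first pair lies in an exon of Meg3 and the miR-675 pair in an exon of H19, on the same strand as the gene. The miR-335 pair lies in an intron of Mest. Mirg, whose name is short for miRNA containing gene, holds 26 mature miRNAs, 8 in exons and 18 in introns, and Rian holds 6, all in introns.

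The maternally expressed long RNAs of the locus all rose. Meg3, a nuclear RNA known as a growth suppressor, rose by 1.67 on the log2 scale (3.19-fold, adjusted p of 9.29e-78) in the authors' deposited table. Rian, the host of snoRNA repeats, was at 1.55 (2.92-fold, adjusted p of 1.55e-59) in the authors' deposited table. B830012L14Rik, a long intergenic RNA lying between Rian and Mirg, was at 1.52 (2.87-fold, adjusted p of 9.68e-07) in the authors' deposited table. The miRNA host Mirg was at 1.10 (2.15-fold, adjusted p of 4.20e-04) in the authors' deposited table. Read along the chromosome in the direction of transcription, the 4 values run downward from Meg3 to Mirg. Without standard errors it cannot be said whether neighbours in this order differ.

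Rtl1, a paternally expressed gene derived from a retrotransposon and needed in the placenta, rose by 1.11 on the log2 scale (2.16-fold, adjusted p of 5.75e-05) in the authors' deposited table. It lies on the minus strand between Meg3 and Rian, at 109589193 to 109600330, and is separated from Rian by 3.61 kb. Its log2 fold change is nearly that of Mirg (1.10) in the authors' deposited table. Whether reads were counted by strand is not given in the sources at hand. Without strand, reads of Rtl1 and of the maternal antisense transcript that carries the 11 miRNAs could not be told apart.

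The paternally expressed protein-coding genes at the ends of the domain, Dlk1, which encodes a transmembrane protein related to Notch ligands, and Dio3, which encodes an enzyme that inactivates thyroid hormone, had no value in the authors' deposited table. A gene without a value may not have changed, may have been too low to test, or may have missed the authors' listing rule. Outside the 5 genes, no other gene within 500 kb was listed. Of the other genes annotated within 500 kb of Meg3, only 1, Dlk1, is protein coding, while 68 are miRNA and 23 snoRNA genes. That none was listed therefore says little about how far the rise extends. The nearest listed genes were Slc25a29, 705 kb before Meg3 and at -0.55, and Hsp90aa1, 941 kb after Mirg and at 0.71, in the authors' deposited table. Both are protein-coding genes outside the imprinted domain. The 5 long genes listed together can be set beside 2.17% of all annotated lincRNA, antisense and processed-transcript symbols and 15.2% of protein-coding symbols that have a value, and nothing is read from this because the listing chose them.

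**Figure D2:**
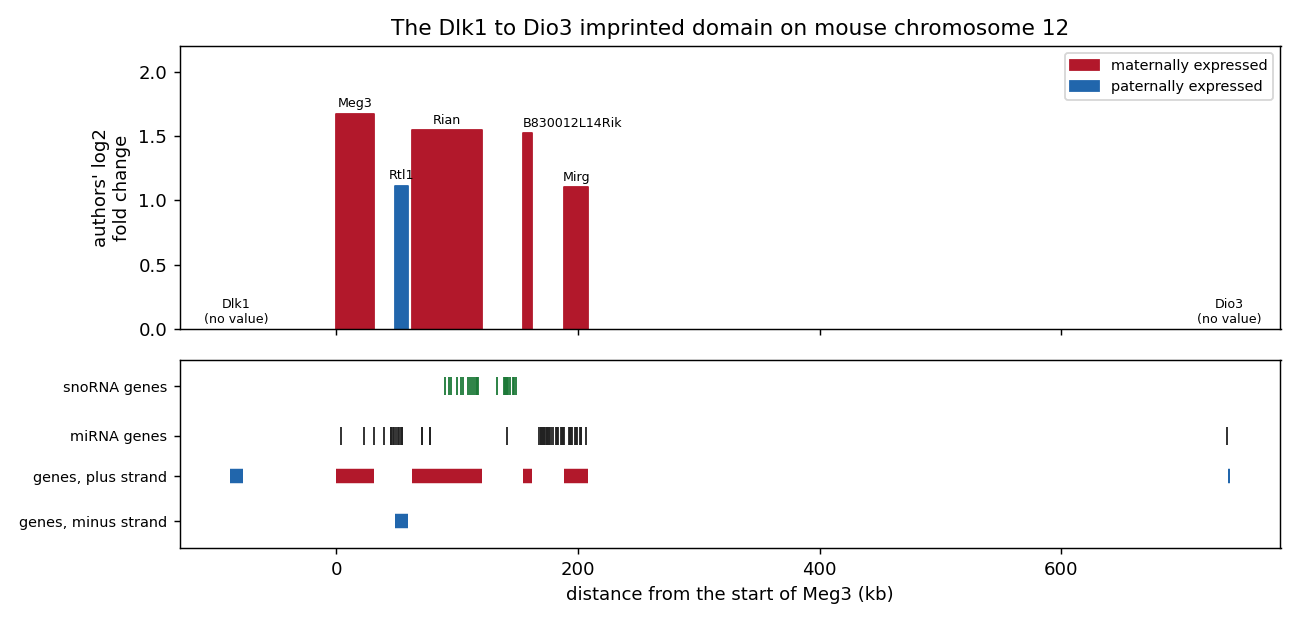
The upper panel gives the authors' log2 fold change for each gene of the domain against its distance in kb from the start of Meg3, and the lower panel the position and strand of genes, miRNA genes and snoRNA genes in GENCODE M21. The 5 listed genes stand between 1.10 and 1.67, and Dlk1 and Dio3 at the ends have no value.

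The promoter windows of the members were searched for motifs because RNAs of the Meg3 locus rose together. RefSeq windows of 250 bases before to 50 after a transcription start were found for 6 of the 10 genes, 10 windows in all. The hexamer TGCCGC, which ZFP57 binds when methylated at imprinting control regions, was sought on both strands. It was found in 5 of the 10 windows, 2 of which are Mest windows that overlap almost entirely, and 11.6% of all 32851 windows hold it. The others are a window each of Meg3, Plagl1 and Grb10, and the windows of Rian and Mirg hold none. TGCCGC itself contains a CG dinucleotide (CpG), and the 5 windows with it hold more CpG than the rest of the 10, as given below. The 11.6% covers all windows whatever their CpG content, so nothing is read from the difference. H19, Cdkn1c, Rtl1 and B830012L14Rik had no window to search. The palindrome TGACGTCA, the cAMP response element, was added after the Meg3 sequence had been read. It occurs in the first Meg3 window and in no other window of these genes, and in 1.79% of all windows. GGGGCCCC, a core of the sequence bound by PLAGL1, was in none of the 10 windows and in 1.08% of all windows. These motifs do not overlap each other in the sequences shown, and a match is a description of letters, not a bound site.

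The first Meg3 window is shown as the start of the transcript with the smallest adjusted p of the 10, and a Mest window, chosen among its 3 as one that holds TGCCGC, for comparison from a paternally expressed gene. Both are on the plus strand of GRCm38.p6, at chr12:109540746-109541045 and chr6:30737800-30738099. Capitals mark TGCCGC on either strand and TGACGTCA.
Meg3: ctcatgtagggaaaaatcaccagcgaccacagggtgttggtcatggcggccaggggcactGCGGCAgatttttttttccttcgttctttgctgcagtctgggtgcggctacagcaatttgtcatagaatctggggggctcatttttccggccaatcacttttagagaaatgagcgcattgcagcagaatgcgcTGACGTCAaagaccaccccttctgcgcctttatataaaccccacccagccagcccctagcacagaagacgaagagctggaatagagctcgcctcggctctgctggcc
Mest: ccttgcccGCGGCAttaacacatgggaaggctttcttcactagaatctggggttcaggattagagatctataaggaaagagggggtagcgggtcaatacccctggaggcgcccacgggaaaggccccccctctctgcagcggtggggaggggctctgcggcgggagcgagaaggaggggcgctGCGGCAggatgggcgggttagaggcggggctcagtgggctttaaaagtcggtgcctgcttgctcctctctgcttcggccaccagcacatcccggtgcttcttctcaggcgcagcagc
These windows hold 13 (Meg3) and 17 (Mest) CpG dinucleotides, against a median of 7 over all windows. Of the windows not shown, the first Grb10 window holds 45, that of Plagl1 26 and the Mest window overlapping the one shown 17. Each of these holds TGCCGC. The remaining windows hold fewer CpG, with 1 in the second Meg3 window, 0 in that of Rian and 8 in the first Mest window. The second Grb10 window holds 9 and that of Mirg 10. None of these remaining windows holds TGCCGC.

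H19, the maternally expressed RNA that is abundant in the fetus and falls silent in most tissues after birth, had the largest change of the 10. Its log2 fold change was 3.19 (9.12-fold, adjusted p of 6.77e-13) in the authors' deposited table. By size it ranked number 96 among the 2213 rises, although 51.7% of the listed genes had smaller adjusted p-values. H19 occupies 142575529 to 142578143 on chromosome 7, on the minus strand, and is a lincRNA in the annotation. Its paternally expressed partner Igf2, a growth factor gene 72.6 kb away that shares its enhancers, had no value in the authors' deposited table.

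The nearest listed gene to H19 was Tnnt3, the fast skeletal muscle troponin T gene, at a distance of 59.5 kb. It rose by 3.23 on the log2 scale (adjusted p of 4.66e-22) in the authors' deposited table, close to the value of H19. Lsp1, a leukocyte actin-binding protein gene, was next at 1.09, followed by the lysosomal protease gene Ctsd at 0.62 and Ifitm10 at 2.03 in the authors' deposited table. Tnni2, the fast skeletal troponin I gene that lies 131 kb from H19, had no value there. Of 6 skeletal muscle markers, 2 were listed (33.3%, against 15.2% of annotated protein-coding symbols). They were Tnnt3, the neighbour of H19 already named, and Ckm. Ckm, the creatine kinase gene shared with the heart, was lower at -0.76 in the authors' deposited table. The part of skeletal-type muscle RNA in these values was not tested.

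Cdkn1c went the other way. It encodes p57Kip2, an inhibitor of the cyclin-dependent kinases that drive cells into S phase, and it restrains growth in the embryo. Its log2 fold change was -1.84 (3.59-fold lower, adjusted p of 2.34e-35) in the authors' deposited table, number 38 by size among the 1726 falls. It lies at 143458339 to 143461050 on chromosome 7, 880 kb from H19, in a neighbouring imprinted domain with its own control region. The domain's other genes did not share the direction where they were listed. Tssc4 and Osbpl5, known as maternally expressed in the placenta, were at 0.84 and 0.63, and Tnfrsf23, a decoy receptor gene of the same stretch, at 1.93 in the authors' deposited table. Kcnq1, Kcnq1ot1, Slc22a18, Phlda2, Nap1l4, Cd81, Tspan32 and Ascl2 had no value there. Slc22a18 begins 12.7 kb and Phlda2 lies 40.5 kb from Cdkn1c.

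Among the 7 CDK inhibitor genes, 4 were listed and 3 of those were higher, against 15.2% of annotated protein-coding symbols listed and 56.2% of listed genes higher. Cdkn2b, encoding p15, was at 2.27, Cdkn2c, encoding p18, at 0.77, and Cdkn1a, encoding p21, at 0.46 in the authors' deposited table. Cdkn1c was the 1 listed inhibitor that fell, and Cdkn1b, Cdkn2a and Cdkn2d had no value. Of 8 genes of D-type and E-type cyclins and their kinases 3 were listed, all higher, to be read against the same shares. Ccne1 and Ccne2, the E-type cyclins, were at 1.36 and 1.14 and the kinase gene Cdk6 at 0.82 in the authors' deposited table.

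Grb10 encodes an adaptor that binds the insulin and IGF1 receptors and dampens their signal. It rose by 0.74 on the log2 scale (1.67-fold, adjusted p of 2.38e-39) in the authors' deposited table, a rise larger than only 19.4% of the listed rises but with a small adjusted p. It lies at 11930508 to 12038683 on chromosome 11. Ddc, 32.4 kb away, encodes aromatic L-amino acid decarboxylase and is known to have a paternally expressed form in the embryonic mouse heart. Ddc was lower at -0.60 (adjusted p of 0.00409) in the authors' deposited table, so the 2 neighbours moved in opposite directions.

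Of 28 insulin and IGF signalling genes, 3 were higher, 4 lower and 21 without a value, with a median of -0.51. The 25.0% listed compares with 15.2% of annotated protein-coding symbols, and over all listed genes 56.2% were higher and the median was 0.67. The growth factor gene Igf1 was at 1.76 and Igfbp7, encoding an IGF-binding protein, at 1.44 in the authors' deposited table. Shc1, encoding a receptor adaptor, was at 0.63, and Grb14, encoding an adaptor of the same family as Grb10, at -0.55 in the authors' deposited table. Igfals, encoding a carrier of circulating IGF, was at -0.61 and Igfbp3 at -0.52 in the authors' deposited table. The receptor genes Igf1r, Insr and Igf2r, the last maternally expressed in the mouse, had no value.

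Plagl1 and Mest are paternally expressed and lie alone on their chromosomes among the 10. Plagl1 encodes a zinc finger transcription factor that acts on other imprinted genes, and it rose by 0.65 on the log2 scale (1.57-fold, adjusted p of 4.59e-04) in the authors' deposited table. That is near the low end of what was listed, since 18 of the 2213 rises lie under 0.58, the log2 of a 1.5-fold change. Plagl1 occupies 13060504 to 13131694 on chromosome 10. Mest, encoding an enzyme of the alpha/beta hydrolase fold that is high in embryonic mesoderm, was at 1.10 (2.15-fold, adjusted p of 5.48e-04) in the authors' deposited table. Mest occupies 30723547 to 30748465 on chromosome 6 and overlaps the end of Copg2, a gene on the opposite strand without a value there. Without stranded counting, reads from the overlap could not be assigned to either.

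**Figure D3:**
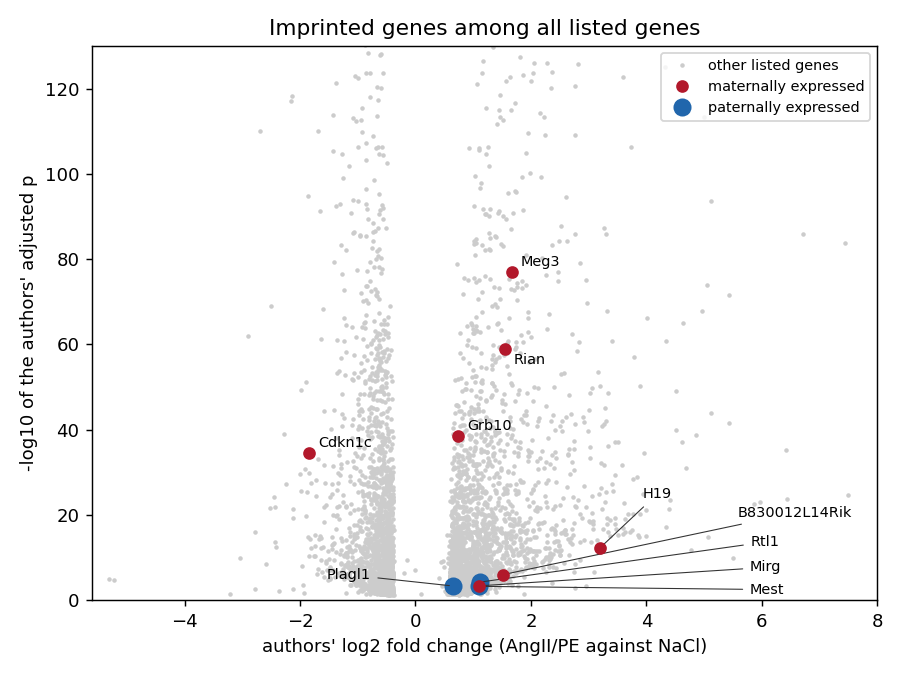
Each point is a listed gene, with the authors' log2 fold change on the horizontal axis and -log10 of their adjusted p on the vertical axis; the 10 imprinted genes are in red (maternally expressed) and blue (paternally expressed), and 93 genes beyond the axes are not drawn. Meg3, Rian, Grb10 and Cdkn1c lie high, whereas Rtl1, Mirg, Mest and Plagl1 lie near the bottom with adjusted p-values between 5.75e-05 and 5.48e-04.

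Both classes were mostly higher among the 10. Of the 7 maternally expressed genes, 6 rose and 1 fell, with a median log2 fold change of 1.52 and a range from -1.84 to 3.19 in the authors' deposited table. The 3 paternally expressed genes all rose, with a median of 1.10 and a range from 0.65 to 1.11 in the authors' deposited table. The range of the paternally expressed genes lay inside that of the maternally expressed ones. Of the 7 maternally expressed genes, 4 come from the Meg3 locus and may share transcription, so they are not separate instances. With that locus counted once, 3 maternally expressed units were higher and 1 lower, at a median of 1.14.

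Other imprinted genes were split between the directions. Of 64 further imprinted genes, many of them imprinted only in placenta or brain, 11 had a value (17.2%, against 15.2% of annotated protein-coding symbols), of which 5 were higher and 6 lower. Among 32 maternally expressed genes, 4 were higher, 2 lower and 26 without a value. Gatm, an enzyme gene of creatine synthesis, was at 1.30, Pon2, a paraoxonase gene, at 0.67, and the organic cation transporter gene Slc22a3 at -1.59 in the authors' deposited table. Zim1, a zinc finger gene, was at -1.16 in the authors' deposited table. The 64 genes were a fixed list and not a full catalogue of imprinted genes. Tnfrsf23 of the Cdkn1c domain, at 1.93 in the authors' deposited table, was not among them. The counts by direction therefore hold for this list only.

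Among 31 further paternally expressed genes, 1 was higher, 4 lower and 26 without a value. Peg10, like Rtl1 derived from a retrotransposon and needed in the placenta, was the 1 that rose, at 1.34 (adjusted p of 5.48e-09) in the authors' deposited table. Snrpn, encoding a spliceosomal protein, was at -1.13, Zrsr1, a splicing factor relative, at -0.65, and the noncoding RNA Peg13 at -0.50 in the authors' deposited table. Ddc was the other. With the 10 genes added, 10 of 13 listed maternally and 4 of 8 listed paternally expressed genes were higher, against 56.2% of all listed genes. The sum includes genes selected for having a value, and no test of the difference between the classes was made.

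A network of 16 imprinted genes known to be expressed together during mouse growth had 7 listed genes, where 15.2% of annotated protein-coding symbols were listed. Of these, 6 rose and Cdkn1c fell; those that rose were H19, Meg3, Gatm, Mest, Grb10 and Plagl1. All but Gatm are among the 10 genes described, which were picked from the listed genes, so the counts mostly restate that choice and nothing is read from setting them beside the 56.2% of all listed genes that were higher. The other 9, which include Igf2, Dlk1, Peg3, Ndn and Dcn, had no value in the authors' deposited table.

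Of 24 genes that maintain imprints or place and remove DNA methylation, 4 were listed, 3 higher and 1 lower. That share of 16.7% is near the 15.2% of annotated protein-coding symbols, and 56.2% of listed genes were higher, so the values describe single genes and not the group. Uhrf1, which brings the maintenance methyltransferase to newly copied DNA, rose by 2.98 on the log2 scale (adjusted p of 1.51e-70), and that methyltransferase gene, Dnmt1, by 0.66 in the authors' deposited table. Zfp57, encoding the zinc finger protein that binds the methylated TGCCGC hexamer, was at 1.46 (adjusted p of 7.60e-08) in the authors' deposited table. Tet1, encoding an enzyme that oxidises methylcytosine, was lower at -0.93 in the authors' deposited table. Trim28, Ctcf, Dnmt3a and Dnmt3b were among the 20 without a value. DNA methylation itself was not measured here.

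Genes around the members were looked at by position. Within 500 kb of any of the 10, the annotation holds 268 other genes, 74 of them protein coding. Of the coding neighbours 17.6% were listed, near the 15.2% of all annotated protein-coding symbols. In all, 15 neighbours had a value, 13 higher and 2 lower, where 56.2% of all listed genes were higher. The 2 lower ones, Ddc and the antisense gene Gm12002 at -1.02 in the authors' deposited table, both lie beside Grb10. H19 and Cdkn1c, both on chromosome 7, have 5 listed neighbours each, all higher, and share Tssc4. Tssc4, Osbpl5 and Ddc were also counted above among the other imprinted genes. The 15 neighbours are therefore not separate instances. The lymphoid transcription factor gene Ikzf1, on the same side of Grb10 as Ddc, was at 1.40 in the authors' deposited table. Near Plagl1, Fuca2, a lysosomal fucosidase gene, was at 1.15 and the syntaxin gene Stx11 at 0.69, and near Mest the centrosomal gene Cep41 was at 0.77 in the authors' deposited table. Beside Cdkn1c, the G protein-coupled receptor gene Mrgpre was at 1.31 and the antisense gene 4933417O13Rik at 0.55 in the authors' deposited table.

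**Figure D4:**
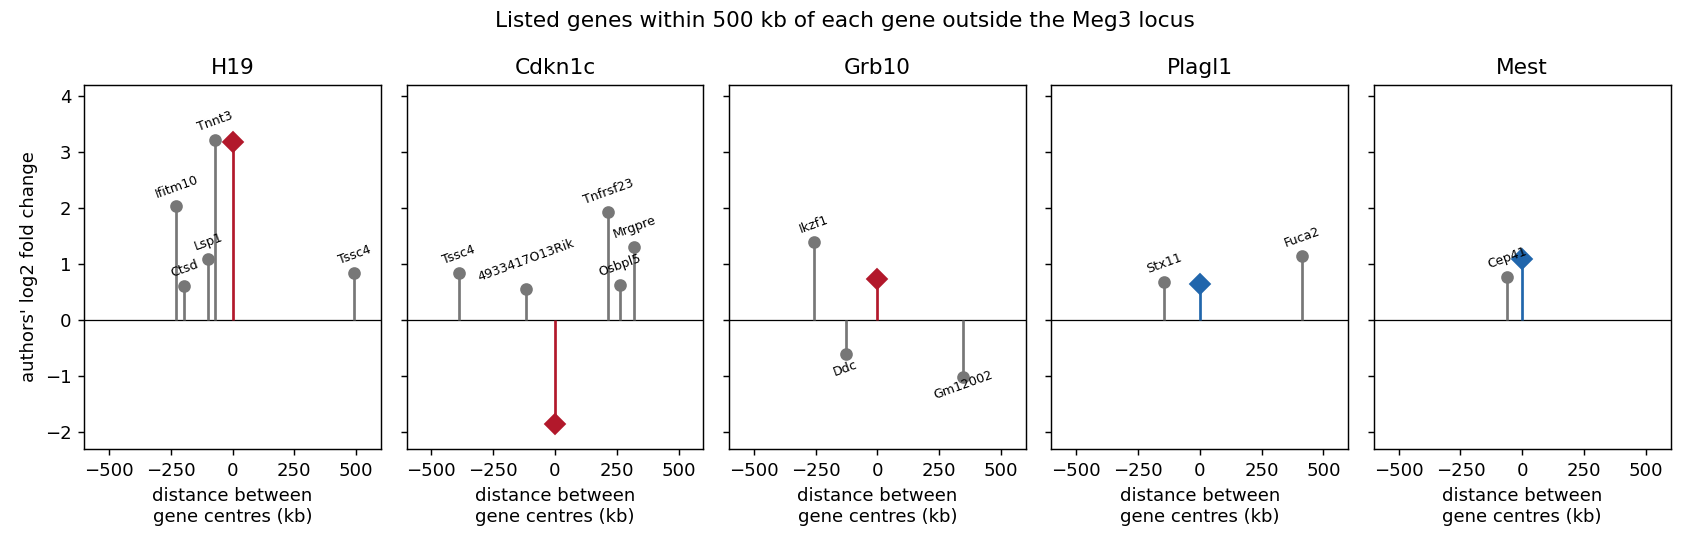
Each panel gives the authors' log2 fold change of the listed genes within 500 kb of 1 imprinted gene (grey circles) and of that gene (diamond, red if maternally and blue if paternally expressed) against the distance between gene centres in kb. Cdkn1c points down among 5 listed neighbours that point up, and Tnnt3 stands beside H19 at a like height.

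Markers of fibroblasts, macrophages and dividing cells were higher wherever they had a value, where 15.2% of annotated protein-coding symbols were listed and 56.2% of listed genes were higher. Fibroblast markers were listed for 4 of 8 genes, all higher, with Col1a1 at 3.81, Col1a2 at 3.47, Col3a1 at 3.17 and Lum at 1.14 in the authors' deposited table. Macrophage markers were higher in 8 of 8, from Csf1r at 0.79 to Ccr2 at 3.28 in the authors' deposited table. Proliferation markers were higher in 6 of 6, with values from 3.01 for Mki67 to 5.08 for Bub1 in the authors' deposited table. Their part in the changes of the imprinted genes was not tested.

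Markers of muscle and vessel cells moved the other way or both ways, where 43.8% of all listed genes were lower. Cardiomyocyte markers had 5 of 8 genes listed, all lower, from Myh6 at -0.65 to Myl2 at -1.17 in the authors' deposited table. Atrial muscle markers had 3 of 4 listed, all lower, from Mybphl at -3.03 to Sln at -5.30 in the authors' deposited table. Sln and Myl7 (-5.23) had adjusted p-values of 1.15e-05 and 2.07e-05 there. Those of the 5 listed cardiomyocyte markers were far smaller, at most 7.37e-71 (Pln). Endothelial markers had 5 of 8 listed, all lower, from Emcn at -0.45 to Cldn5 at -0.92 in the authors' deposited table. Smooth muscle and pericyte markers were 2 higher and 3 lower, with Cnn1 at 3.57 and Abcc9 at -1.17 at the ends in the authors' deposited table. Their part in the changes, including the fall of Cdkn1c, was not tested either.

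**Figure D5:**
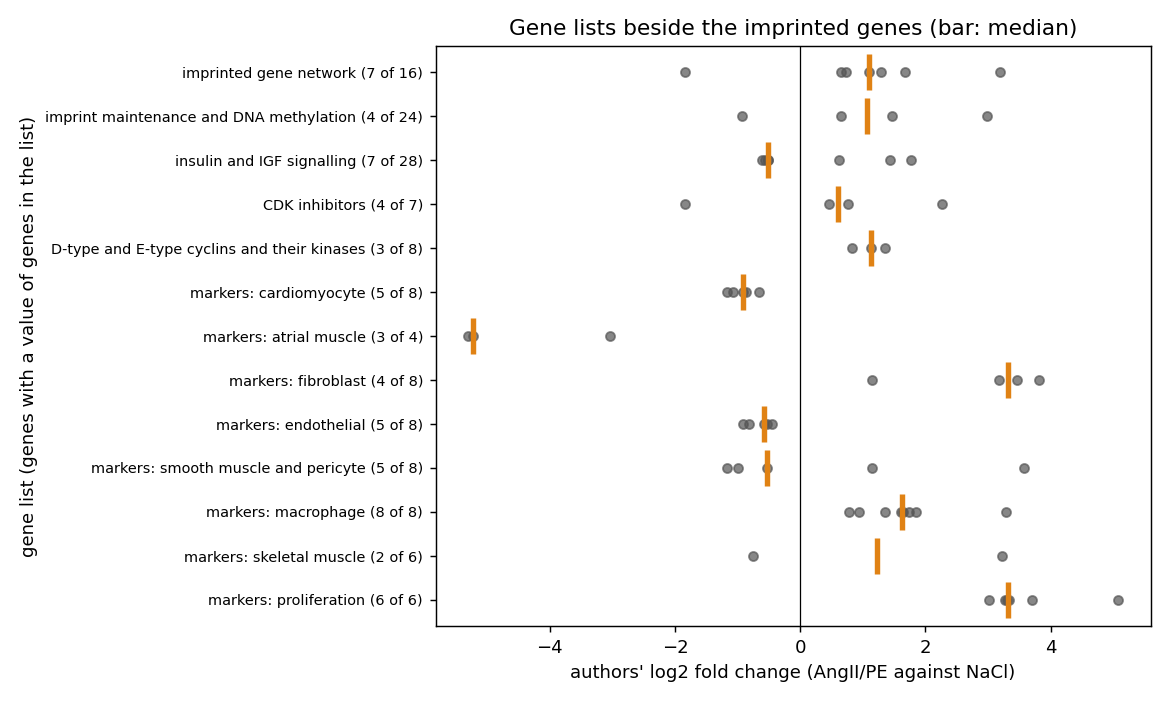
Each circle is the authors' log2 fold change of 1 listed gene and each orange bar the median of the listed genes of that list, with the number listed of the number in the list beside its name. Proliferation, fibroblast and macrophage markers lie to the right of 0 and cardiomyocyte, atrial and endothelial markers to the left.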

How the data were processed

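Left ventricular RNA was sequenced in 12 libraries, 6 for each treatment. Per the submitters' processing notes the authors used cutadapt, STAR 2.4.2a, Subread, featureCounts and DESeq2 with build mm10. Roles, settings, model and strandedness were not given in the sources used here. Per the file headers, the deposited table holds an average log2 fold change and an adjusted p-value for each gene. What was averaged, whether both values come from the same comparison, the number of genes tested and the listing rule are not given. Rises start near 0.59 and falls near -0.39 (first percentiles of size), so smaller changes are rarely listed. A fit to counts, foreseen for values per library, was not run because none were used here, and the depth is unknown.

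The values were read with pandas 2.3.3 on Python 3.11.15 and described by counts and medians, with no test. Positions come from GENCODE M21 (GRCm38) by exact symbol, which matched 3836 symbols to a single gene, 8 to several and 95 to none. Neighbours are genes whose lower coordinate lies within 500 kb of a member. Members and lists were chosen with earlier results of these data known. Named genes were the 10 members, listed imprinted, imprint-maintenance and neighbouring genes, and up to 6 genes of each other list (4 for markers). Alternatives were stricter p thresholds, a size threshold, recentring, other windows and other ways of counting the classes.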

Additional observations from a re-analysis of the deposited data

How the results depend on the processing

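All 10 genes kept their direction at an adjusted p of at most 0.01 or 0.001 and after recentring by 0.11, the midpoint between the 5th percentile of listed rises (0.63) and the 95th percentile of listed falls (-0.41). With a minimum log2 change of 1 in either direction, Grb10 and Plagl1 drop out. Medians of the members left were then 1.32 for all, 1.53 for the maternally expressed and 1.11 for the paternally expressed. After recentring, with all 10 kept, they were 0.99, 1.41 and 0.99. Without Grb10 the maternal median was 1.53, with the Meg3 locus counted once 1.14 (3 higher), and without Rtl1 the paternal median was 0.88. Of the other imprinted genes, 2 higher and 3 lower remained at that size. Among the maternally expressed ones 1 was higher and 2 lower, and among the paternally expressed ones 1 was higher and 1 lower. Their medians rest on few genes and changed sign: the maternal one to -1.16 and the paternal one to 0.11 at that size, and that of both to 0.061 at an adjusted p of at most 0.001, where Ddc drops out. Lower neighbours numbered 1 within 250 kb, 4 within 1000 kb and 1 among coding genes. No paired analysis was possible because the result comes from no test of single libraries, and for the same reason no library could be left out. What limits depth sets is unknown.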
